A study of Mus musculus with 3 samples.

Results

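The nuclear genes of the mitochondrial respiratory chain were examined in single cells of mouse condylar cartilage. Members are the genes whose symbol begins with Nduf, Uqcr or Atp5, the 4 genes Sdha, Sdhb, Sdhc and Sdhd, and those beginning with Cox4 to Cox8. Of 94 symbols matched, 93 had at least 10 UMIs over the 3 libraries and are described here, out of 32285 genes listed and 19815 with at least 10 UMIs. Cox8c, with 2 UMIs, is left out. The ATP synthase subunit c genes appear under the older symbols Atp5g1, Atp5g2 and Atp5g3, and the ATPase inhibitor, listed under another symbol, is not matched.

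The study profiled wild-type C57BL6 mice at embryonic day 16.5 (E16.5), birth (P0) and 13 weeks (13w), with condyles of 7 to 20 mice pooled into 1 library per stage. Condyles of the jaw joint were digested with collagenase and dispase, and living cells were sorted by their dyes before droplet capture. No group carries a treatment or an altered allele. A UMI is a molecular tag that counts 1 captured transcript, and levels are given as UMIs of a gene scaled to a total of 1000000 UMIs for the cell group (CPM). With 1 library per stage, no test between stages is possible, and every interval covers counting error only. In such sums, fewer cells expressing a gene and less transcript per cell cannot be told apart.

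Barcodes were kept if they had 500 or more genes and mitochondrial UMIs of no more than 10%, leaving 4562, 3999 and 8028 cells of E16.5, P0 and 13w, with median depths of 17401.5, 17954 and 11010 UMIs. Between 10 and 15 barcodes are shared by any pair of libraries. Cells with markers of 7 non-skeletal classes made up 7.47%, 3.18% and 6.42% of cells. Sex composition differs between the pools, since the Y-linked Ddx3y stood at 42.5 and 56.4 CPM at E16.5 and P0 and had 0 UMIs at 13w, where Xist stood at 689 CPM against 333 and 277 earlier. Stage and sex composition cannot be told apart.

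The respiratory chain passes electrons from NADH through complex I, or from succinate through complex II, by way of complex III and cytochrome c to complex IV, where oxygen is reduced. Proton pumping by complexes I, III and IV drives ATP synthesis by complex V. Most subunits are nuclear genes, whose proteins are imported and assembled with a small set of subunits encoded by mitochondrial DNA. Cartilage has no blood vessels, and its chondrocytes are known for relying largely on glycolysis. A few subunits of complex IV have alternative forms, of which Cox4i2 and Ndufa4l2 are known to be induced by low oxygen and Cox6a2, Cox7a1 and Cox8b are heart and muscle forms.

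Promoter sequence in RefSeq (build GRCm38.p6, 250 bases before to 50 after each gene's start) was held for 77 of the 93 members, in 82 windows. Windows were searched on both strands for the letters GCATGCGC (NRF1 core), CCGGAAG (ETS core), AAGATGGC (YY1 core) and ACGTG (hypoxia core). The ETS and YY1 letters can share a stretch, and no printed window holds both. The NRF1 letters were in 14.6% of member windows and 2.71% of all 32851 windows. The ETS letters were in 23.2% against 8.86%, and the YY1 letters in 13.4% against 2.75%. The hypoxia letters were in 24.4% of member windows against 19.6% of all. Among windows of genes with at least 10 UMIs in the kept cells, these shares were 4.20%, 13.9%, 3.53% and 23.5%. A match describes letters only. Windows are shown for the 7 members that edgeR called between cell classes (below) and that have a window, and for Ndufa4, whose share against its paralogue moved between stages. Capitals mark the motif letters. Cox6a1 (chr5:115348909-115349208, minus strand) holds NRF1 and ETS letters, Ndufa8 (chr2:36049289-36049588, minus strand) NRF1 letters, and Atp5md (chr19:47090598-47090897, minus strand) ETS letters. Atp5g1 (chr11:96075582-96075881, minus strand), Ndufa1 (chrX:37191189-37191488, minus strand) and Ndufv3 (chr17:31519865-31520164, plus strand) hold the hypoxia letters and none of the other 3 motifs. Cox6b2 (chr7:4753045-4753344, minus strand) and Ndufa4 (chr6:11907401-11907700, minus strand) hold none of the 4 motifs. Members without a window include Cox4i1, Cox4i2 and Ndufa4l2.
Cox6a1: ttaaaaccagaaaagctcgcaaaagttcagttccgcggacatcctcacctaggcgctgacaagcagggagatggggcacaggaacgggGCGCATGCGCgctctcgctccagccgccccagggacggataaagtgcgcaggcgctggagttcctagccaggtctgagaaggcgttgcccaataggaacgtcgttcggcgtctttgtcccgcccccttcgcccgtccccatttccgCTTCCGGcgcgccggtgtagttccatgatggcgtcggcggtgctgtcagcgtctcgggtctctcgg
Ndufa8: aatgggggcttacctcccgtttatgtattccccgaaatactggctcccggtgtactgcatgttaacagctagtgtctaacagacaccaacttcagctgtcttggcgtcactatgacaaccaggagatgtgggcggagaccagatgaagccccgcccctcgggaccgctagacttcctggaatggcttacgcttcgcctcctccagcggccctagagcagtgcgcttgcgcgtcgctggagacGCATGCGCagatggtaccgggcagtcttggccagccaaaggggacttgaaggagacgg
Atp5md: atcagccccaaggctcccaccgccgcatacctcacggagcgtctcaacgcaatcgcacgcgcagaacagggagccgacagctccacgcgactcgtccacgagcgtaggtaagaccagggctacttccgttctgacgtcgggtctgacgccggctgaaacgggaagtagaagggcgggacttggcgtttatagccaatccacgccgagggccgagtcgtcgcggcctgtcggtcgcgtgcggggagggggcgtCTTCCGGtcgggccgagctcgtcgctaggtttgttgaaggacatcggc
Atp5g1: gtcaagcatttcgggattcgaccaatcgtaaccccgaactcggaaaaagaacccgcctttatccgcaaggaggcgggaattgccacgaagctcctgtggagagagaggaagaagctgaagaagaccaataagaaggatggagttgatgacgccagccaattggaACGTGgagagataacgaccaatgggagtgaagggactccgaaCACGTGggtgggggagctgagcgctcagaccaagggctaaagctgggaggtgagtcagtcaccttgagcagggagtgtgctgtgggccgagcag
Ndufa1: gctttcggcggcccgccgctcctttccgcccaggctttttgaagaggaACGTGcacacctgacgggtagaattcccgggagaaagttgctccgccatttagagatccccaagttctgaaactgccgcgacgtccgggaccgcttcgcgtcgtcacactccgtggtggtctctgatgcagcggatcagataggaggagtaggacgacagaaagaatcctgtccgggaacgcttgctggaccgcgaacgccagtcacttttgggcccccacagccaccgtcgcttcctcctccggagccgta
Ndufv3: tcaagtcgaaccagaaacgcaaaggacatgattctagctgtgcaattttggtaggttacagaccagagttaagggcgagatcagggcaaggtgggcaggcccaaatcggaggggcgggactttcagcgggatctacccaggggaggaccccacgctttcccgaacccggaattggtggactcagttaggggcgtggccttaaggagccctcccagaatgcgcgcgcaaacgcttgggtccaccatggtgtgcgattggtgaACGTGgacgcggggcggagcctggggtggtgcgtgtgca
Cox6b2: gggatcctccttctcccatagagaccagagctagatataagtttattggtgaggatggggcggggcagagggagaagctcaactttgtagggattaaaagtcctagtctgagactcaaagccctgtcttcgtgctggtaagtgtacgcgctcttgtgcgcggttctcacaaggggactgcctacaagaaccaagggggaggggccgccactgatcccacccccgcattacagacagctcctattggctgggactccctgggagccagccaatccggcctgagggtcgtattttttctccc
Ndufa4: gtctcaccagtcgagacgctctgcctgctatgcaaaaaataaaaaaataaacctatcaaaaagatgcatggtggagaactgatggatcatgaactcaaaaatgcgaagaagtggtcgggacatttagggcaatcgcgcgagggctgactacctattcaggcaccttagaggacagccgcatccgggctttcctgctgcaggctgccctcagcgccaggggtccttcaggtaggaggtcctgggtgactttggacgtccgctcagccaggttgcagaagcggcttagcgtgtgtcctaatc

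Summed over the 93 members, respiratory chain transcripts took a smaller share of the transcriptome at each later stage. Of all UMIs they made up 2.93% in the E16.5 library, 2.46% in the P0 library and 2.00% in the 13w library. Without Ndufa4l2 and Cox4i2 the shares were 2.87%, 2.38% and 1.81%. The order held in each complex. Complex I (NADH dehydrogenase, 37 genes) went from 0.837% to 0.695% and 0.584% of UMIs. Complex II (succinate dehydrogenase) went from 0.0389% to 0.0299% and 0.0211%, and complex III (8 genes) from 0.281% to 0.244% and 0.184%. Complex IV (cytochrome c oxidase, 19 genes with Ndufa4 and its paralogue) went from 0.830% to 0.732% and 0.664%, and complex V (ATP synthase, 17 genes) from 0.913% to 0.747% and 0.531%. The 8 complex I assembly factors did not follow it, at 0.0264%, 0.0154% and 0.0218%. Each of these shares comes from a single library. The complex IV sum includes Ndufa4l2 (434, 687 and 1550 CPM) and Cox4i2 (93.1, 186 and 432 CPM), which were higher at each later stage. The rest of complex IV thus fell more than its sum.

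The 13 subunits encoded by mitochondrial DNA held 2.19%, 3.33% and 3.40% of UMIs. The larger step was from E16.5 to P0. The order of P0 and 13w turned with the mitochondrial limit at 20% (3.63% and 3.56%) and in the cells low in Col9a1 described below (3.66% and 3.50%). The ratio of mitochondrially encoded to nuclear UMIs was 0.747, 1.35 and 1.69 over the 3 stages, a measure within each library that no scaling factor changes. The rise from P0 to 13w was not general, since cells low in Col9a1 had ratios of 0.829, 1.72 and 1.69 and complex I had 0.666, 1.42 and 1.25. Complex V had the lowest ratio at E16.5, with 0.417 against 0.941 at P0 and 1.28 at 13w. Complex III had 0.951, 1.52 and 2.13, and complex IV 1.18, 1.74 and 2.41. The nuclear UMIs of complex IV include Ndufa4l2 and Cox4i2, so its ratios would be higher without them. From E16.5 to P0, 12 of the 13 mitochondrial genes were above 0 in log2 ratio (median 0.48, against −0.13 for all genes). By the rule for a call given below, 5 were called higher, 38.5% against 12.8% of all genes. Those called were mt-Nd1, mt-Nd2 and mt-Nd3 of complex I and mt-Atp6 and mt-Atp8 of complex V. From P0 to 13w the median was −0.04 (0.10 with TMM factors), with mt-Co1, a catalytic core subunit of complex IV, higher (0.59) and mt-Nd1 lower (−0.98). Each is 7.69% of the 13, against 15.8% of all genes higher and 20% lower. The limit on mitochondrial UMIs acts on these values, because it removed 15.4%, 16.5% and 9.21% of barcodes. With the limit at 20% the ratios were 0.863, 1.48 and 1.79, and at 5% they were 0.678, 1.20 and 1.58, so the order of stages over all kept cells was the same.

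**Figure D1:**
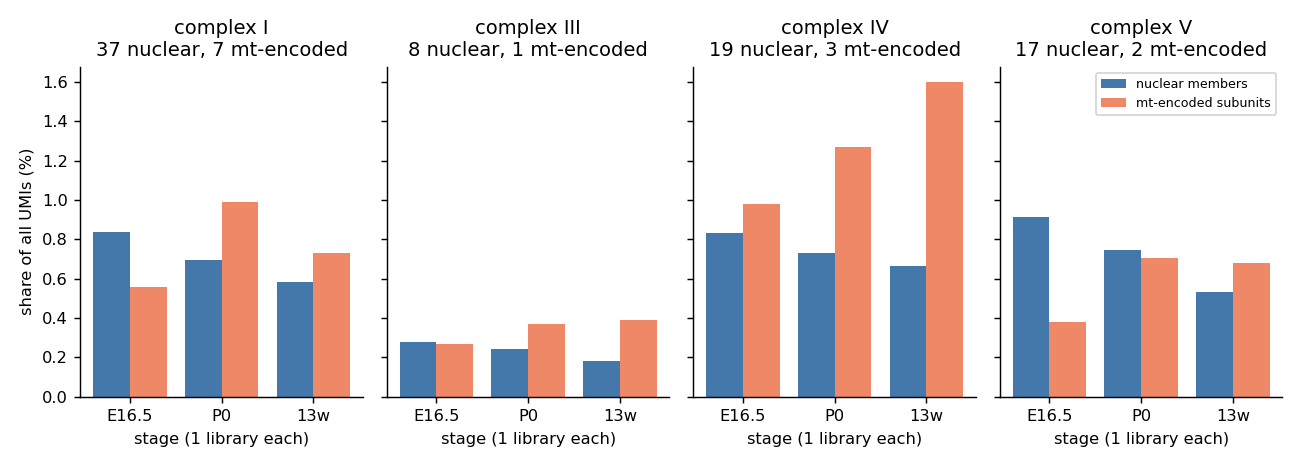
Share of all UMIs (%) held by nuclear members (blue) and by subunits encoded in mitochondrial DNA (orange) of 4 complexes at E16.5, P0 and 13w; each bar is 1 library, with no replicate and no error bar. Nuclear shares step down at each stage in all 4 complexes, while the mitochondrially encoded share goes from 0.982% to 1.27% and 1.60% in complex IV, and is highest at P0 in complex I (0.557%, 0.988% and 0.729%) and complex V (0.381%, 0.703% and 0.678%). Nuclear members of complex IV include Ndufa4l2 and Cox4i2, which are higher at each later stage.

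From E16.5 to P0 nearly all members had ratios a little below 1. A gene counts as measured if the higher group reaches 10 CPM, and as called with a ratio of at least 1.5-fold whose 95% counting interval excludes 1. Of 88 members measured, 82 were below 0 in log2 ratio, with a median of −0.31 against −0.13 for all 8261 measured genes. Scaling by TMM, which centres the genes, gives −0.19 against −0.02. Only 2 members were called higher, a share of 2.27% against 12.8% of all genes measured, and 10 were called lower, 11.4% against 21.3%. Both shares were below those of all genes.

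The lower members were led by complex I assembly factors, proteins that help build the complex and are not part of it. Ndufaf2 stood at 75.7 CPM at E16.5 and 31.1 at P0 (log2 −1.28, counting interval −1.35 to −1.22). Ndufaf7 went from 33.4 to 17.4 CPM, Ndufaf4 from 37.5 to 21.3 and Ndufaf6 from 17.2 to 10.5. Thus 4 of 7 measured assembly factors were called lower, 57.1% against 21.3% of all genes. Ndufab1, the mitochondrial acyl carrier protein and a complex I subunit, went from 312 to 173 CPM (log2 −0.85, −0.88 to −0.82). Ndufc1 and Ndufa3 (−0.62 and −0.61), accessory subunits of complex I, were near the 1.5-fold limit, as was Atp5mpl (−0.68), a small protein of ATP synthase. Next to that limit on the other side, the assembly factor Ndufaf1 stood at −0.58 and Sdhc at −0.55. Ndufa4, now counted as a subunit of complex IV, went from 676 to 351 CPM (log2 −0.95, −0.97 to −0.93). Cox6b2, known as a testis form of subunit 6B, went from 22.4 to 10.9 CPM (−1.05), while its common form Cox6b1 stood at 582 and 518.

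The members called higher were the alternative forms Cox4i2, from 93.1 to 186 CPM (log2 1.0, 0.97 to 1.04), and Ndufa4l2, from 434 to 687 CPM (0.66, 0.64 to 0.68). The P0 library has more cells with Col9a1, and with both Col9a1 classes weighted equally these values become 0.51 and 0.29, under the 1.5-fold limit. Without cycling cells Ndufa4l2 stands at 0.48, also under it. Cox6b2 loses its call with equal weights too, at −0.38. No complex III member was called, and the 8 lay between −0.41 (Uqcrb) and −0.10 (Uqcrq). The 4 Sdh genes lay between −0.55 (Sdhc) and −0.22 (Sdhd). In complex V, the catalytic beta subunit Atp5b had the value nearest to 0 (−0.07).

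Between P0 and 13w calls were spread over complexes I, IV and V, with 8 each in complexes I and V. Of 87 members measured, 21 were called lower, 24.1% against 20% of all 8098 measured genes, and 5 higher, 5.75% against 15.8%. The member median was −0.41 against −0.13 for all genes, and −0.27 against 0.01 with TMM factors. With TMM factors 9 members were lower, and 12 when mitochondrial and matrix genes were left out of the total. The share of all genes called was not counted under these scalings, so counts with TMM factors here and below cannot be set against the 20%. Cartilage and bone matrix genes took a large part of adult UMIs, with Ibsp at 38714 CPM in the adult cells highest in Col9a1.

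Complex V had 8 of 17 members called lower, 47.1% against 20% of all genes, and 4 with TMM factors (Atp5a1, Atp5b, Atp5g1 and Atp5g3). Atp5a1, the alpha subunit, and Atp5b, the catalytic beta subunit, stood at 465 and 619 CPM at P0 and at 233 and 317 at 13w (log2 −1.0 and −0.96). Of the genes for subunit c, which forms the rotating ring, Atp5g1 went from 601 to 312 CPM (−0.95) and Atp5g3 from 277 to 148 (−0.90), while Atp5g2, from 549 to 385, was not called (−0.51). The peripheral stalk genes Atp5f1 (−0.68) and Atp5o (−0.63) and the central stalk gene Atp5d (−0.61) were lower as well, with Atp5md (−0.59) just past the limit. Atp5e, the small epsilon subunit, went from 625 to 675 CPM (0.11) and Atp5k from 226 to 234 (0.05), and neither was called.

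In complex I, 7 of 37 were called lower, 18.9% beside 20% of all genes, and 3 with TMM factors. The lowest were the membrane-arm subunits Ndufc2, from 250 to 135 CPM (−0.89), and Ndufb8, from 269 to 148 (−0.86). Ndufa1, another membrane-arm subunit, was the member of complex I called higher, at 135, 139 and 235 CPM over the 3 stages (log2 0.75, 0.72 to 0.78, from P0 to 13w). Ndufa1 is X-linked, as are Cox7b (−0.59) and Ndufb11 (−0.09), and stage cannot be told apart from sex composition here. The assembly factors Ndufaf3 (16.3 to 33.2 CPM, log2 1.03) and Ndufaf4 (21.3 to 34.7 CPM, 0.70) were higher, and Ndufaf2 went from 31.1 to 45.5 CPM without a call (0.55). In complex II, only Sdhd, a membrane anchor, was called, going from 87.8 to 57.2 CPM (−0.62). In complex III, Uqcr11 was called lower, from 408 to 248 CPM (−0.72), and in complex IV Cox5b (442 to 246, −0.84), Cox6a1 (442 to 250, −0.82), Cox6b1 (518 to 341, −0.60) and Cox7b were.

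**Figure D2:**
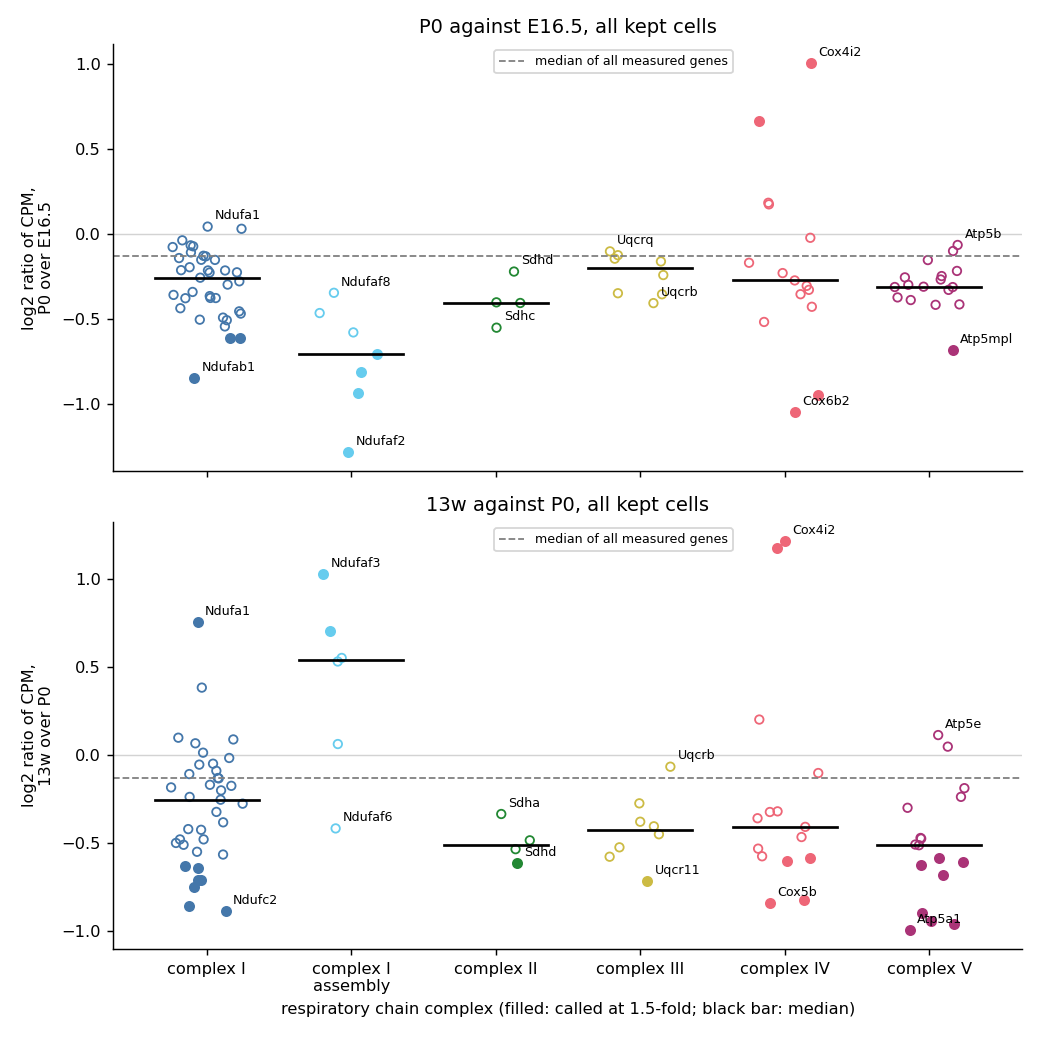
Log2 ratio of CPM of each measured member, by complex, for P0 over E16.5 (top) and 13w over P0 (bottom), each comparing 2 libraries. Filled points are called at 1.5-fold, black bars are medians of a complex and the dashed line is the median of all measured genes; most points lie below 0, Cox4i2 and Ndufa4l2 lie above it in both panels, and complex I assembly factors lie low in the top panel (median −0.70) and high in the bottom one (0.54).

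Taking both steps, 68 of 87 members were below 0 in both log2 ratios, 13 were below and then above 0, and 3 were above and then below 0. At the earlier step 93.2% of measured members and 59.2% of all measured genes were below 0. At the later step these shares were 81.6% and 58.7%. The joint pattern was not counted for all genes. The 3 members above 0 at both steps were Cox4i2, Ndufa1 and Ndufa4l2. Both steps share the P0 library, so a high or low P0 value enters each of them. The assembly factors Ndufaf2, Ndufaf3, Ndufaf4, Ndufaf7 and Ndufaf8 are among those that were below and then above 0.

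The alternative forms changed their share within their pairs. A share within a pair compares stages and not the abundance of the proteins, because 3′ tags capture different genes with different efficiency. Ndufa4l2 held 39.1% of the UMIs of the pair with Ndufa4 in the E16.5 library (95% binomial interval, Clopper-Pearson, 38.8 to 39.4), 66.2% (65.9 to 66.5) in the P0 library and 86.8% (86.7 to 87.0) in the 13w library. Over the same stages Cox4i2 held 8.16% (8.0 to 8.32), 15.3% (15.1 to 15.5) and 37.8% (37.5 to 38.1) of its pair with Cox4i1. Cox6b2 held 3.71%, 2.06% and 3.53% of its pair with Cox6b1. The muscle forms were near 0 at every stage. Cox7a1 was at most 0.163% of its pair with Cox7a2, Cox6a2 at most 0.507% of its pair with Cox6a1, and Cox8b at most 0.00790% of its pair with Cox8a. Cox7b2, a paralogue of Cox7b, had at most 0.0895 CPM.

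Ndufa4 was at 676, 351 and 235 CPM over E16.5, P0 and 13w, and Ndufa4l2 at 434, 687 and 1550. Thus Ndufa4 was highest where its paralogue was lowest. Cox4i1, the common form of subunit 4, was at 1048, 1031 and 712 CPM, and Cox4i2 at 93.1, 186 and 432. The step from P0 to 13w was 2.26-fold for Ndufa4l2 (log2 1.17, 1.16 to 1.19) and 2.32-fold for Cox4i2 (1.21, 1.19 to 1.24). Ndufa4 stood at −0.58 over that step, just short of the 1.5-fold limit.

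Cells were also split by Col9a1, a cartilage collagen gene. Cells with at least 3 Col9a1 UMIs per 10000 UMIs of the cell are called Col9a1-high. They were 1014 cells (22.2%) of the E16.5 library, 1746 (43.7%) of the P0 library and 1621 (20.2%) of the 13w library. The cut falls on a range and not between types, since 20.2%, 18.6% and 20.8% of cells lay between 1 and 10. Chondrocyte markers summed to 27332, 42599 and 57712 CPM in Col9a1-high cells and to 1198, 2165 and 6769 CPM in the others, with all 10 markers detected in each group. Fibrous and surface markers summed to 3033, 8897 and 32451 CPM in Col9a1-high cells and to 6665, 13619 and 35421 CPM in the others. At 13w those markers thus hardly separated the classes. Col9a1-high cells were also deeper, with median depths of 40311.5, 36409.5 and 23612 UMIs against 14937, 11771 and 9547.

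In Col9a1-high cells Cox4i2 stood at 179, 246 and 688 CPM over the 3 stages, and in other cells at 40.0, 65.6 and 285. Ndufa4l2 stood at 806, 825 and 1491 CPM in Col9a1-high cells and at 204, 409 and 1584 in other cells. Its level in Col9a1-high cells was thus nearly the same at E16.5 and P0, while in other cells its log2 ratio was 1.0 (0.96 to 1.04). Ndufa4 stood at 602, 337 and 202 CPM in Col9a1-high cells and at 722, 380 and 254 in other cells, lower at each later stage in both classes. At 13w Cox4i2 held 54.2% of its pair in Col9a1-high cells and 26.6% in other cells.

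**Figure D3:**
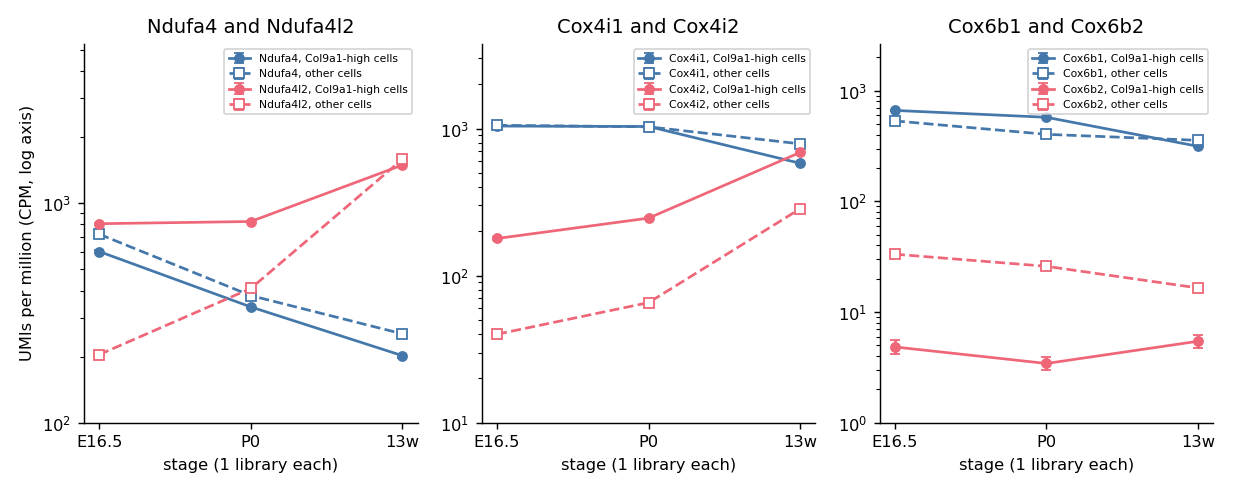
CPM (log axis) of Ndufa4 and Ndufa4l2, Cox4i1 and Cox4i2, and Cox6b1 and Cox6b2 at each stage in Col9a1-high cells (filled circles, solid lines) and other cells (open squares, dashed lines); error bars are 95% Poisson intervals of the UMI sum, mostly smaller than the symbols, and each point is 1 library. Ndufa4l2 is at nearly the same level in both classes at 13w, Cox4i2 stays higher in Col9a1-high cells, and Cox6b2 stays lower there.

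The comparison of Col9a1-high with other cells asks which members differ with Col9a1 within a library. At E16.5, 7 of 89 measured members were called higher, 7.87% against 16.7% of all 8443 measured genes, and 2 lower, 2.25% against 26.7%. At P0, 11 of 87 were higher, 12.6% against 19% of 8222 genes, and 1 lower, 1.15% against 24.5%. At 13w, 1 of 86 was higher, 1.16% against 6.56% of 7839 genes, and 3 lower, 3.49% against 25.2%. Member medians were 0.08, 0.27 and −0.17, beside −0.18, −0.10 and −0.31 for all genes. TMM factors move all-gene medians to between −0.02 and 0.01 and member medians to 0.23, 0.38 and 0.13, so the sign at 13w depends on the scaling.

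Cox4i2 was the member called higher in all 3 libraries, by 4.47-fold at E16.5, 3.75-fold at P0 and 2.41-fold at 13w. Cox6b2 was the member called lower in all 3, at 4.84, 3.43 and 5.45 CPM in Col9a1-high cells against 33.3, 25.9 and 16.5 in the others. It reached the minimum of 10 CPM only in the other cells, where it was higher, so these calls are no support. Ndufa4l2 was 3.94-fold higher at E16.5 and 2.02-fold at P0, while at 13w its classes stood at 1491 and 1584 CPM (log2 −0.09, −0.10 to −0.07). Uqcrq and Uqcr11, small subunits of complex III, were higher at E16.5 (0.75 and 0.62) and P0 (1.04 and 0.93) and stood at 0.10 and −0.03 at 13w. The same held for Cox6a1, Atp5md and Ndufv3. Uqcrc1, a core subunit of complex III, and Ndufv1, the NADH-binding subunit of complex I, were lower at 13w (−0.71 and −0.65), and neither was called with TMM factors (−0.41 and −0.35). Ndufv1 was below 0 in each library, at −0.48, −0.53 and −0.65.

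By direction before any scaling factor, 45 of 86 members were above 0 at E16.5 and P0 and below 0 at 13w, 20 were below 0 in all 3 and 11 above 0 in all 3. The 11 were Atp5e, Atp5g1, Cox4i2, Ndufa1, Ndufa8, Ndufc1, Ndufc2, Ndufs3, Ndufs4, Ndufv3 and Uqcrq. Of all measured genes, 60.8%, 55.9% and 77% were below 0 at E16.5, P0 and 13w, against 34.8%, 25.3% and 87.2% of members. Most genes were thus below 0 at 13w under this scaling, and joint patterns were not counted for all genes.

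A paired test across libraries was run with edgeR's quasi-likelihood test on 6 sums, Col9a1-high and other cells of each library, with the library as a block and Benjamini-Hochberg adjustment. The 3 libraries differ in age, so their spread is not that of repeated samples. Of 87 members tested, 8 were higher and 1 lower at an adjusted p under 0.05, 10.3% in all. Of all 7675 genes tested, 13.2% were higher and 13.4% lower. Cox4i2 had a log2 difference of 1.91 (SE 0.17, edgeR adjusted p = 0.0089, higher in 3 of 3 libraries). Cox6b2 stood at −2.31 (SE 0.37, edgeR adjusted p = 0.0196, lower in 3 of 3). It passed the filter of 10 CPM in 3 sums only through the other cells, where it was higher, so it could enter the test only if it differed and its p is no support.

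The others called higher were Ndufa1 (0.69, SE 0.12), Ndufv3 (0.60), Uqcrq (0.76), Atp5md (0.59), Cox6a1 (0.64), Ndufa8 (0.46) and Atp5g1 (0.56), with edgeR adjusted p between 0.022 and 0.049. Of these, Atp5md and Cox6a1 stood at −0.01 and −0.00 in the 13w library before TMM scaling. Ndufa4l2 was not called (1.09, SE 0.37, edgeR adjusted p = 0.0904). Without the E16.5 library or without the P0 library no member was called by edgeR, with Cox4i2 at adjusted p = 0.0506 and 0.0555. In these fits 3 and 4 members had an unadjusted p under 0.05. Without the 13w library 18 were higher, and the member called lower was Ndufv1. With no library block 0 were higher and Cox6b2 was lower, and with DESeq2 12 were higher and 2 lower. Calls over all genes moved as well. They were 98 of 6805 without the E16.5 library, 86 of 6820 without P0 and 2810 of 6966 without 13w. Of 7675 genes, 180 were called with no library block and 2923 with DESeq2, against 2038 in the main fit.

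**Figure D4:**
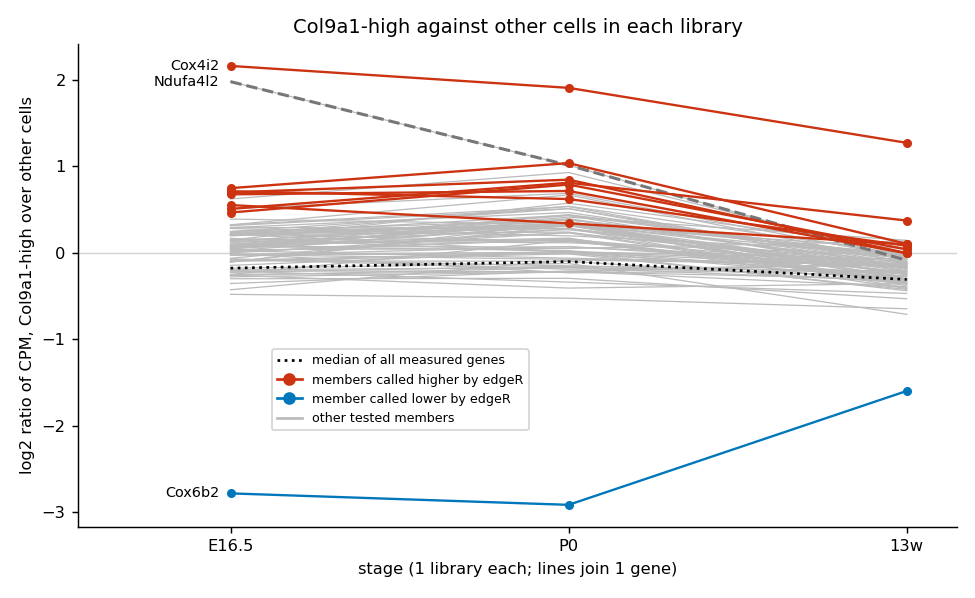
Log2 ratio of CPM in Col9a1-high over other cells for the 87 members tested by edgeR, with 1 line per gene over the 3 libraries and no error bars; red lines are the 8 members called higher, the blue line is the 1 called lower, the dashed grey line is Ndufa4l2 and the dotted line is the median of all measured genes. Cox4i2 lies above and Cox6b2 below all other members in each library, and most lines are lower at 13w than at P0.

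At E16.5 the levels of Ndufa4l2, Cox4i2 and Cox6b2 followed Col9a1 in a graded way. In E16.5 cells with no Col9a1 UMI Ndufa4l2 stood at 121 CPM and Cox4i2 at 26.6, in cells with 1 to under 3 per 10000 UMIs at 423 and 73.3, and in cells with 10 or more at 824 and 192. Cox6b2 went from 37.7 to 23.4 and 3.35 CPM over the same bands. At 13w Ndufa4l2 stood at 1527, 1621 and 1325 CPM over these bands, with no order, and Cox4i2 at 232, 437 and 710. Cox4i1 stood at 823, 697 and 546 there, against 1068, 1021 and 1036 at E16.5. At P0 the highest values of Ndufa4l2 (967 CPM) and Cox4i2 (283) were in cells with 3 to under 10.

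Depth differs between the classes, so shares of cells with a UMI were taken after thinning each cell to 3000 UMIs. Cox4i2 was then found in 34.3% of Col9a1-high cells from E16.5, 43.2% from P0 and 74.7% from 13w, and in 7.73%, 10.8% and 37.7% of other cells. Without thinning these were 84.8%, 87.2% and 93.9%, and 28.0%, 28.1% and 57.4%. Ndufa4l2 was found in 82.6%, 79.7% and 88.5% of thinned Col9a1-high cells and in 24.8%, 37.3% and 76.4% of others. Thinning left out 23, 75 and 57 Col9a1-high cells and 147, 49 and 264 others. As a background, cells with blood markers held Cox4i2 in 1.34%, 0% and 14.2% and Ndufa4l2 in 5.37%, 5.88% and 29.4%, at median depths of 10059, 9574 and 7730 UMIs. Only 17 such cells were left at P0, where 0 of 17 has an exact binomial upper bound of 19.5%. The shares in other cells at 13w lie above this background, and free RNA in the droplets was not modelled.

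Cells with mural markers (31, 56 and 13 cells), which wrap small vessels, held Cox4i2 at 244, 391 and 480 CPM and Ndufa4l2 at 680, 1095 and 1431. Leaving out all cells with non-skeletal markers, edgeR called 7 of the 8 higher, all but Ndufa8, and Cox6b2 lower. Mural markers summed to 1.72, 1.53 and 2.16 CPM in Col9a1-high cells and to 31.2, 105 and 13.7 in the others. Blood markers summed to 59.0, 9.04 and 506 CPM and to 1140, 84.3 and 4569.

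Per cell, the share of members in a cell's UMIs varied widely within each stage. The median E16.5 cell held 2.72% (10th to 90th percentile 1.75 to 3.49), the median P0 cell 2.21% (1.44 to 3.09) and the median adult cell 1.97% (1.42 to 2.77). In Col9a1-high cells the medians were 3.15%, 2.62% and 1.83%, and in other cells 2.57%, 1.88% and 2.00%. In these shares of a cell's total UMIs, the classes therefore stood in opposite order at 13w. That order is tied to the total. Over summed cells the 13w member median was 0.13 with TMM factors and 0.0083 with mitochondrial and matrix genes left out of the total. The share moved with depth. Among other cells at E16.5 the shallowest of 3 equal parts by depth held 2.19% and the deepest 2.99%, at P0 1.73% and 2.28%, while at 13w they held 2.08% and 1.93%. The part of depth in the class difference was not tested. Thinning cannot test it, because it leaves the expected share of members in each cell unchanged and only weights cells equally. The member medians under thinning were 0.16, 0.32 and −0.17. Cells with at least 2 UMIs of the proliferation genes Mki67 and Top2a held 2.91%, 2.43% and 2.23% of UMIs in members, against 2.94%, 2.47% and 1.97% in the rest.

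**Figure D5:**
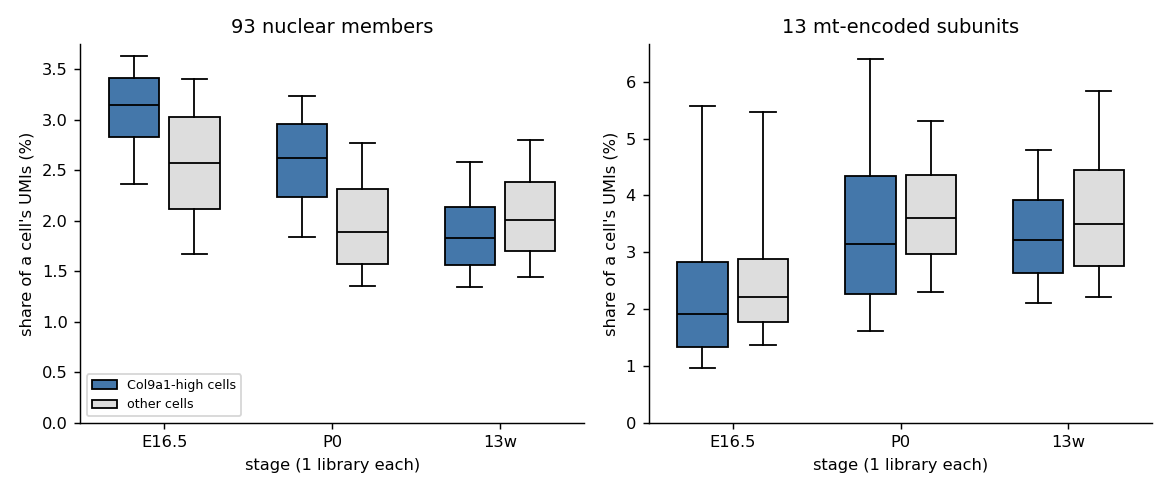
Share of each cell's UMIs (%) in the 93 nuclear members (left) and the 13 mitochondrially encoded subunits (right) at each stage, in Col9a1-high cells (blue) and other cells (grey); boxes span the 25th to 75th percentile of cells with the median as a line, whiskers the 10th to 90th, and each box holds the cells of 1 library. Nuclear medians in Col9a1-high cells step from 3.15% to 2.62% and 1.83%, and at 13w the order of the classes is the opposite of that at E16.5 and P0. Shares are of total UMIs, and over summed cells the order at 13w depends on the scaling.

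Within each class the members' medians were below those of all genes over both steps. From E16.5 to P0 they were −0.31 in Col9a1-high cells (all genes −0.08) and −0.42 in other cells (−0.15), and from P0 to 13w −0.59 (−0.30) and −0.16 (−0.05). Thus the later step was larger in Col9a1-high cells and the earlier one in other cells. With 1 library per stage the difference between the steps was not tested.

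ATP synthase shows the pattern within the classes. Its 17 genes together held 0.97%, 0.796% and 0.499% of UMIs in Col9a1-high cells and 0.877%, 0.649% and 0.548% in other cells over the 3 stages. Col9a1-high cells thus had the larger share of UMIs at E16.5 and P0 and the smaller at 13w. The order at 13w depends on the scaling. There the complex V median log2 ratio of Col9a1-high over other cells was −0.17, against 0.13 with TMM factors. With mitochondrial and matrix genes left out of the total it was 0.0067. The catalytic subunit Atp5b stood at 706, 652 and 272 CPM in Col9a1-high cells and at 611, 552 and 343 CPM in other cells. Its log2 ratio from P0 to 13w was −1.26 (−1.29 to −1.23) and −0.68 (−0.71 to −0.66). Atp5g1, a subunit c gene, stood at 966, 698 and 317 CPM in Col9a1-high cells, and at 699, 404 and 309 CPM in the others, where the larger step was from E16.5 to P0 (log2 −0.79, against −0.39 from P0 to 13w). Medians of the other complexes from P0 to 13w were −0.44 in Col9a1-high and −0.08 in other cells for complex I, −0.78 and −0.34 for complex II, −0.62 and −0.16 for complex III, and −0.67 and −0.18 for complex IV. The assembly factors alone were above 0 in both classes, at 0.49 and 0.58. Their member Ndufaf2 stood at 62.4, 30.5 and 42.8 CPM in Col9a1-high cells and at 84.0, 32.3 and 47.1 CPM in others, so both classes had its lowest level at P0.

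The shares called lower among all genes, 21.3% from E16.5 to P0 and 20% from P0 to 13w, and higher, 12.8% and 15.8%, stand beside the counts for other mitochondrial genes. Of 78 mitochondrial ribosome genes measured from E16.5 to P0, 24 (30.8%) were lower and 0 higher (median −0.41), led by Mrpl42 at 149 and 60.4 CPM. From P0 to 13w, 6 of 76 (7.89%) were lower and 2 higher (−0.22), and Mrpl42 was one of the latter, at 103 CPM. Other assembly factors were lower in 10 (29.4%) and higher in 0 of 34 over the earlier step (−0.44), with the complex IV factor Coa3 at 116 and 52.2 CPM. Over the later step 7 of 29 (24.1%) were higher and 2 (6.9%) lower (−0.04, and 0.11 with TMM factors), with Cox20, another complex IV factor, going from 38.7 to 80.4 CPM. Cytochrome c and carrier genes were lower in 3 of 8 (37.5%) and then in 2 of 8 (25%), with Cycs, cytochrome c itself, at 301, 158 and 147 CPM. Tricarboxylic acid cycle genes were lower in 6 of 20 (30%) and then in 3 of 20 (15%), and none was higher. Fh1, fumarase, went from 64.6 to 27.6 CPM over the earlier step. Genes that shape the inner membrane were lower in 4 of 9 or 44.4% (Immt from 114 to 64.8 CPM) and then lower in 1 and higher in 1.

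Regulators of mitochondrial biogenesis had no call at either step, with 8 of 14 measured and medians of 0.01 and −0.10 (0.13 and 0.04 with TMM factors). Tfam, which packages and transcribes mitochondrial DNA, stood at 35.0, 27.2 and 21.1 CPM, and Ppargc1a was below 1 CPM in all 3 libraries. Hypoxia targets did not move as a block between stages. From E16.5 to P0, 1 of 9 was higher (Car9, from 4.20 to 21.7 CPM) and 4 lower, led by the glucose transporter Slc2a1 (67.2 to 26.6). From P0 to 13w, 3 were higher and 2 lower of 9, with Ankrd37 from 5.79 to 28.6 CPM and the glycolytic gene Pgk1 from 974 to 337. In these steps Car9 and Ankrd37 reached the minimum of 10 CPM only in the library where they were higher, so their calls are no support. In Col9a1-high cells, 5 of 8 were higher at E16.5, with the mitophagy receptor gene Bnip3 at 464 CPM against 70.1 and Pgk1 at 1639 against 449. At P0, 5 were higher and 2 lower of 8, and at 13w 2 higher and 1 lower. Of all genes measured at E16.5, P0 and 13w, 16.7%, 19% and 6.56% were higher in Col9a1-high cells. The shares lower were 26.7%, 24.5% and 25.2%.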

How the data were processed

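The deposited files hold whole-number UMI counts per gene and barcode, which the authors made, per the file headers, with Cell Ranger 6.1.2, and build GRCm39 per the submitters' processing notes. Other upstream settings are not given in the sources used here. Cells were filtered as stated in the report, doublets stayed in, and an alternative removed 181, 146 and 572 barcodes. UMIs were summed per stage and Col9a1 class and divided by the sum's total (CPM). Kept totals were 100546288, 94002214 and 113130140 UMIs. Ratios between libraries carry exact 95% conditional binomial counting intervals and no p-value, because each stage is 1 library of pooled animals. The class comparison used edgeR 4.0.16 (TMM, library block, at least 10 CPM in 3 of 6 sums), with DESeq2 1.42.0 as an alternative, in R 4.3.3. Sums used numpy 2.4.6, pandas 2.3.3 and scipy 1.17.1. The ratio and edgeR steps were tested on simulated data.

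The members, marker lists and related lists were chosen with earlier results of these data known. Named members are isoforms and paralogues, the Sdh genes, and the 2 largest and 2 smallest ratios per complex and comparison. The members called by edgeR and those nearest the 1.5-fold limit are named in addition. Related lists cover the mitochondrial ribosome, assembly factors, the tricarboxylic acid cycle, carriers, inner membrane form, biogenesis regulators, hypoxia targets and mitochondrially encoded subunits. Alternatives changed the scaling, the fold and CPM limits, the Col9a1 cut, the mitochondrial limit, depth, cycling cells, doublets and the test.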

Additional observations from a re-analysis of the deposited data

Results flagged for a closer look

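The members' median log2 ratio of Col9a1-high over other cells had opposite signs at different stages, 0.078 at E16.5 and 0.27 at P0 against −0.17 at 13w. All measured genes had medians of −0.18, −0.10 and −0.31. The difference between stages was not tested, since each stage is 1 library, and at 13w the sign reversed under TMM factors (0.13). Median depth in Col9a1-high cells was 40311.5, 36409.5 and 23612 UMIs, and with each cell thinned to 3000 UMIs the medians were 0.16, 0.32 and −0.17. Thinning leaves the expected share of members in each cell unchanged, so the part of depth was not tested.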

How the results depend on the processing

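No stage comparison has a replicate, intervals cover counting error only, and genes near 10 CPM are the least precise. Of 188 alternative counts of members, 128 stayed within 1.5 times the main count. Single members gave 3598 values counted as unchanged, 69 that lost and 86 that gained a call. Of members called in the main run, 0 changed direction. A change of sign in a member without a call was counted as unchanged. The causes of the changes below were not tested. The 13w class median reversed to 0.13 with TMM factors, 0.14 with median-of-ratios factors and 0.0083 with mitochondrial and matrix genes left out of the total. Over all alternatives it ran from −0.22 to 0.14, against 0.01 to 0.23 at E16.5, 0.15 to 0.39 at P0, −0.34 to −0.17 for P0 against E16.5 and −0.44 to −0.25 for 13w against P0.

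From E16.5 to P0, members higher were 2, against 1 at 2-fold, 1 without cycling cells and 0 with equal class weights. Members lower were 10, against 6 with median-of-ratios factors, 2 at 2-fold and 6 at 50 CPM. From P0 to 13w, members higher were 5, against 3 at 2-fold and 3 at 50 CPM. Members lower were 21, against 9 with TMM, 9 with median-of-ratios factors, 12 with the reduced total, 0 at 2-fold, 13 thinned and 12 with equal cell weights.

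At E16.5, 7 were higher in Col9a1-high cells, against 11 with TMM, 11 with median-of-ratios factors and 2 at 2-fold. The 2 lower became 1 with TMM, median-of-ratios factors, 2-fold, no cycling cells, equal cell weights, a cut of 1 or of 3 raw UMIs, 0 at 50 CPM, 5 at a cut of 10 and 6 without cells near the cut. At P0, 11 higher became 3 at 2-fold, 17 thinned and 7 at a cut of 10. The 1 lower became 3 with no minimum, 0 at 50 CPM, 2 thinned, 3 at a cut of 10 and 3 without cells near the cut. At 13w, 1 higher became 2 with TMM, median-of-ratios factors or no minimum. The 3 lower became 1 with TMM, median-of-ratios factors, the reduced total or 2-fold, and 5 with no minimum.

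With edgeR, 8 higher became 4 at a cut of 1, 4 at 3 raw UMIs, 3 thinned, 13 with no filter and 4 without cycling cells. Calls over all genes, 2038 in the main run, were 1838, 1802, 1574, 4639 and 1654 in the same settings. Without the library block, which pairs both classes of a library, 0 members were higher and 1 was lower. Leaving out 1 library gave 0 to 18 higher and 0 to 1 lower. Over all genes, 180 were called without the block and 86 to 2810 with 1 library left out. The 1 lower became 2 at a cut of 10, with DESeq2, without cells near the cut, with doublets removed and with no filter, and 0 without cycling cells.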
